A study of Mus musculus with 31 samples.

Results

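The genes described here encode the enzymes and the chaperone that fold and crosslink collagen. They are a named list of 10 genes, Lox, Loxl1, Loxl2, Loxl3, Loxl4, P4ha1, P4ha2, Plod1, Plod2 and Serpinh1, out of 21938 protein-coding genes on chromosomes 1 to 19, X and Y of the mouse genome build mm10. The data are the ATAC-seq peaks of 1 library of the parental NIH-3T3 line, a line of mouse fibroblasts, made from 50000 cells with 0.5 µM of the transposase Tn5. The labels give no transgene and no treatment for the parental cells, while the methods give doxycycline for NIH-3T3 cells in general, so whether these cells received it is not known. The study also has NIH-3T3 lines that overexpress 1 of 13 transcription factors, or only the doxycycline-dependent activator rtTA3G as a control, and these 30 samples were not analysed here.

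ATAC-seq marks DNA that is open to Tn5, so a peak over a promoter shows that it is accessible, which is not a measure of expression. For each peak, the authors deposited a fold enrichment, the pileup of fragments at its highest point (the summit) over the pileup expected locally, each with 1 added, and a −log10 q. The number of fragments at each summit was solved from the fold enrichment and the deposited −log10 p. The lowest summit in the list of 63456 peaks was covered by 10 fragments and the median summit by 29, so a site covered by fewer does not appear. With 1 library there is no replicate, no test was made, and the 95% Poisson intervals below cover counting error only. As a check of the cell type, 7 of 8 fibroblast markers had a peak within 1 kb of an annotated transcription start site (TSS), against 53.7% of all protein-coding genes, with fold enrichments from 3.41 to 7.79. The lowest, at Thy1, had 12 fragments and lay 862 bp from the TSS, and Fap had none. A peak was also found at 2 of 6 epithelial markers, at 3 of 4 endothelial markers (the highest at Cdh5, with a fold enrichment of 12.82) and at 0 of 4 blood markers.

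Collagen chains are modified in the endoplasmic reticulum before they wind into a triple helix. Prolyl 4-hydroxylases, whose catalytic subunits are encoded by P4ha1 and P4ha2, add the hydroxyl groups that keep the helix stable. Lysyl hydroxylases, encoded by Plod1 and Plod2, modify lysines that later take part in crosslinks, and Serpinh1 encodes HSP47, a chaperone that binds the folded procollagen. After secretion, the copper-dependent amine oxidases of the lysyl oxidase family, LOX and LOXL1 to LOXL4, oxidise lysines of collagen and elastin and so start the crosslinks that make fibres stiff and insoluble. Fibroblasts are the main source of these fibres in connective tissue.

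Of the 10 genes, 8 had a peak within 1 kb of a TSS, against 53.7% of all protein-coding genes. Loxl2 and Loxl4 had none. In total 86 peaks were assigned to the 10 genes. Of these, 11 lay within 1 kb of a TSS of the gene, 9 elsewhere in the gene body and 66 outside the gene within 50 kb. The strongest TSS peaks of the 8 genes had a median fold enrichment of 8.3 and ranged from 4.36 to 12.76. The median over all protein-coding genes with a TSS peak was 9.86 (quartiles 7.27 and 12.4), so that P4ha1, Plod1 and P4ha2 lay above it and the other 5 below.

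**Figure D1:**
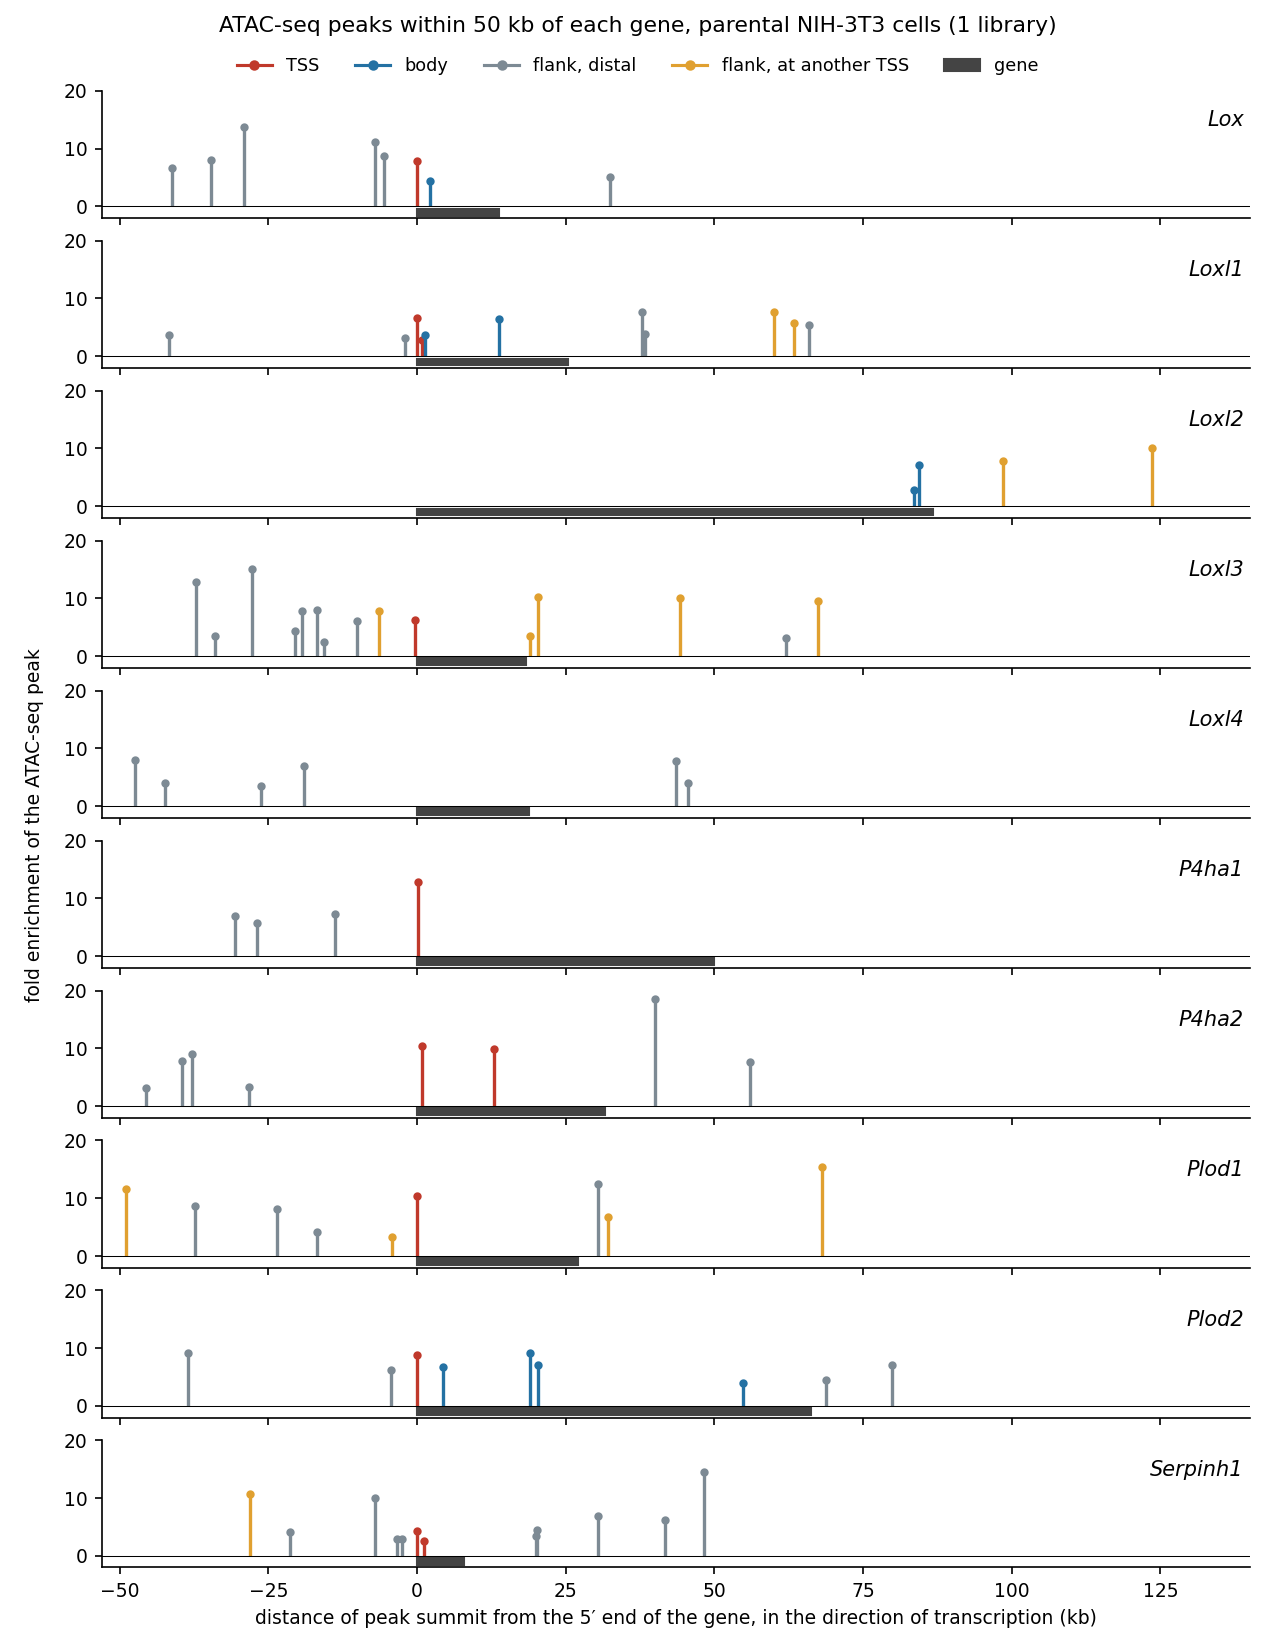
Peaks at the 10 genes. The x axis is the distance of the summit from the 5′ end of the gene in kb, in the direction of transcription, and the y axis is the fold enrichment; dark bars are the genes and colors mark peaks at a TSS of the gene, in its body, outside it, and outside it at a TSS of another gene. No peak stands at the 5′ ends of Loxl2 and Loxl4, and the tallest of all, at 18.53, lies downstream of P4ha2.

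The prolyl 4-hydroxylase genes had the first and the third highest TSS peak. P4ha1 (ENSMUSG00000019916.14, chr10:59323296-59373304, + strand) had a peak of 1140 bp, from 59322948 to 59324087, with 82 fragments at the summit, which gave a fold enrichment of 12.76 (−log10 q 61.91, 95% interval 65.2 to 101.8 fragments). This was higher than in 78.3% of the protein-coding genes with a TSS peak, and the summit lay 2 bp before an annotated TSS. The rest of the 50.0-kb gene held no peak. The remaining peaks of P4ha1, 3 in number, lay 13765, 26847 and 30583 bp upstream with fold enrichments of 7.33, 5.81 and 6.95.

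P4ha2 (ENSMUSG00000018906.14, chr11:54100095-54131665, + strand) had TSS peaks at 2 places. The first, of 1124 bp, covered the main cluster of TSSs, with 48 fragments at the summit, which gave a fold enrichment of 10.33 (−log10 q 33.29). The second, of 257 bp, from 54112933 to 54113189, had nearly the same height, with 51 fragments at the summit, which gave a fold enrichment of 9.84 (−log10 q 33.87). Its summit lay in an intron, 12987 bp from the 5′ end of the gene and 121 bp before the TSS of a transcript that the annotation lists as noncoding. At least 2 TSS peaks were found in 3 of the 10 genes (P4ha2, Loxl1 and Serpinh1) and in 13.0% of all protein-coding genes. In Loxl1 and Serpinh1, however, the further peak had its summit only 792 and 1123 bp inside the gene and was low (2.84 and 2.64).

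The sequences of the P4ha2 promoters are shown because the peaks over them were alike in height while their base composition was not. The first is the 100 bases before the first TSS inside the peak (chr11:54100824-54100923, + strand) and the second is the window of 100 bp on either side of the summit of the internal peak (chr11:54112982-54113182, + strand). Capitals mark the matches to ACGTG, the core of the hypoxia response element, CCGCCC (SP and KLF factors), CCAAT (NF-Y) and TTCNNGAA (core of the heat shock element) on either strand. The ACGTG in the first stretch lies more than 100 bp before the summit and is not the match counted for this peak below, which lies outside the stretch. The stretches hold 13 and 3 CpG dinucleotides. The 6 capitals near the start of the internal sequence are overlapping matches to ACGTG on both strands.
P4ha2 first promoter: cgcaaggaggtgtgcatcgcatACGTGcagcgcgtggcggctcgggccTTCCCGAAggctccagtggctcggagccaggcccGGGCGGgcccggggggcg
P4ha2 internal promoter: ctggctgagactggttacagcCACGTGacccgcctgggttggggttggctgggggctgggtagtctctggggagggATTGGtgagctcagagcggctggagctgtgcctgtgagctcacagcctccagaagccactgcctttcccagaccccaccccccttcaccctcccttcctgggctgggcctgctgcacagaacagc

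The lysyl hydroxylase genes had the second and the fourth highest. Plod1 (ENSMUSG00000019055.15, chr4:147909753-147936767, − strand) had a narrow TSS peak of 404 bp with 69 fragments at the summit, which gave a fold enrichment of 10.36 (−log10 q 46.08, interval 53.7 to 87.3 fragments). Plod2 (ENSMUSG00000032374.14, chr9:92542223-92608428, + strand) had a peak of 1232 bp with 86 fragments at the summit, which gave a fold enrichment of 8.74 (−log10 q 50.01, interval 68.8 to 106.2 fragments), the most of the 10 genes. A TSS of another annotated gene, Gm38391, also lay within 1 kb of the Plod2 peak. Locally, 8.95 fragments were expected at the summit of Plod2 and 5.75 at that of Plod1, so that Plod2 had more fragments but the lower fold enrichment. Serpinh1 (ENSMUSG00000070436.12, chr7:99345376-99353239, − strand) had the lowest TSS peak of the 8, from 99353096 to 99353367, with 31 fragments at the summit, which gave a fold enrichment of 4.36 (−log10 q 10.0, interval 21.1 to 44.0 fragments). Only 5.69% of the protein-coding genes with a TSS peak had a lower one.

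Among the lysyl oxidase genes, Lox had the highest TSS peak. Lox (ENSMUSG00000024529.14, chr18:52516067-52529867, − strand) had a peak of 1350 bp with 51 fragments at the summit, which gave a fold enrichment of 7.85 (−log10 q 28.41, interval 38.0 to 67.1 fragments), whose summit lay 28 bp after the TSS. A TSS of the antisense RNA gene AC161119.1 also lay within 1 kb of this peak, and its summit lay inside that gene. Loxl1 (ENSMUSG00000032334.10, chr9:58287738-58313186, − strand), known for its part in elastic fibres, had a peak of 741 bp with 48 fragments at the summit, which gave a fold enrichment of 6.65 (−log10 q 23.31, interval 35.4 to 63.6 fragments), with the summit 11 bp after its only TSS. At Loxl3 (ENSMUSG00000000693.10, chr6:83034173-83052562, + strand) the peak was the widest of the 10 genes, 1571 bp, with 59 fragments at the summit, which gave a fold enrichment of 6.3 (−log10 q 26.88, interval 44.9 to 76.1 fragments). Its summit lay outside the gene, 419 bp before the TSS of Loxl3 and 283 bp from the 5′ end of the neighbouring gene Dok1, so this peak belongs to both promoters.

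Loxl2 (ENSMUSG00000034205.16, chr14:69609068-69695834, + strand) and Loxl4 (ENSMUSG00000025185.14, chr19:42593982-42612813, − strand) were without a TSS peak. The nearest peak to a TSS of Loxl2 was 83107 bp away, at the other end of its gene, and the nearest to a TSS of Loxl4 was 18813 bp away. Neither gene had a peak within 2 kb of a TSS. For both, accessibility below the depth of the list was not detectable.

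**Figure D2:**
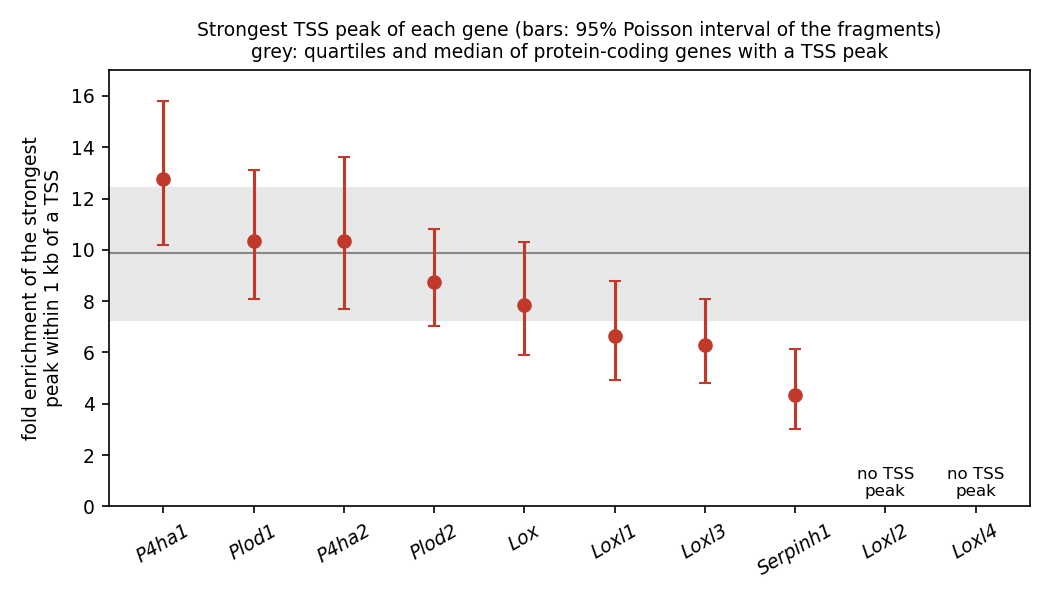
Strongest TSS peak of each gene. Points are the fold enrichment, bars the 95% Poisson interval of the fragments at the summit expressed as fold enrichment, and the grey band and line are the quartiles and median of protein-coding genes with a TSS peak. The bars of neighbouring genes overlap, and that of Serpinh1 ends below those of P4ha1, Plod1, P4ha2 and Plod2.

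In the order P4ha1, Plod1, P4ha2, Plod2, Lox, Loxl1, Loxl3 and Serpinh1, the counting intervals of every pair of neighbours overlapped, so no step of this order was resolved at this depth. The ends of the order were apart. The interval of P4ha1 ran from 10.2 to 15.8 and that of Serpinh1 from 3.02 to 6.14, below the lower bounds of Plod1 (8.1), P4ha2 (7.68) and Plod2 (7.02). By fragments at the summits of these same peaks, the order was Plod2 (86), P4ha1 (82), Plod1 (69), Loxl3 (59), Lox (51), P4ha2 and Loxl1 (48 each) and Serpinh1 (31). The first peak of P4ha2 thus fell behind Loxl3 and Lox, but the internal TSS peak of P4ha2, with 51 fragments, equalled Lox.

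The promoters also differed in CpG content, which the choice of genes did not use. In the 300 bp from 250 bp before to 50 bp after the TSS, the ratio of observed to expected CpG was between 0.81 and 0.87 for P4ha1, P4ha2, Plod1 and Plod2. It was 0.31 for Lox and Loxl1, 0.48 for Loxl3 and 0.55 for Serpinh1. The 4 hydroxylase genes had the 4 highest CpG ratios and the 4 highest fold enrichments, but the intervals of Plod2 and Lox overlapped. By fragments, the first peak of P4ha2 (48), at the TSS used for its ratio, lay below the peaks of Loxl3 (59) and Lox (51). The medians over all protein-coding genes were 0.78 with a TSS peak and 0.24 without. The window lay at the TSS nearest the summit where there was a peak, and otherwise at the most upstream TSS. In genes with several TSSs the ratio could thus depend on the peak itself, and how far this moved the medians and the shares below was not tested. Lox and Loxl1 had a peak although only 27.8% of the protein-coding genes within 0.05 of their ratio had one. Loxl4, with 0.77, had none, although 80.8% of the 2480 protein-coding genes within 0.05 of its ratio had one. Loxl2, with 0.53, lay in between, at 55.6%.

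**Figure D3:**
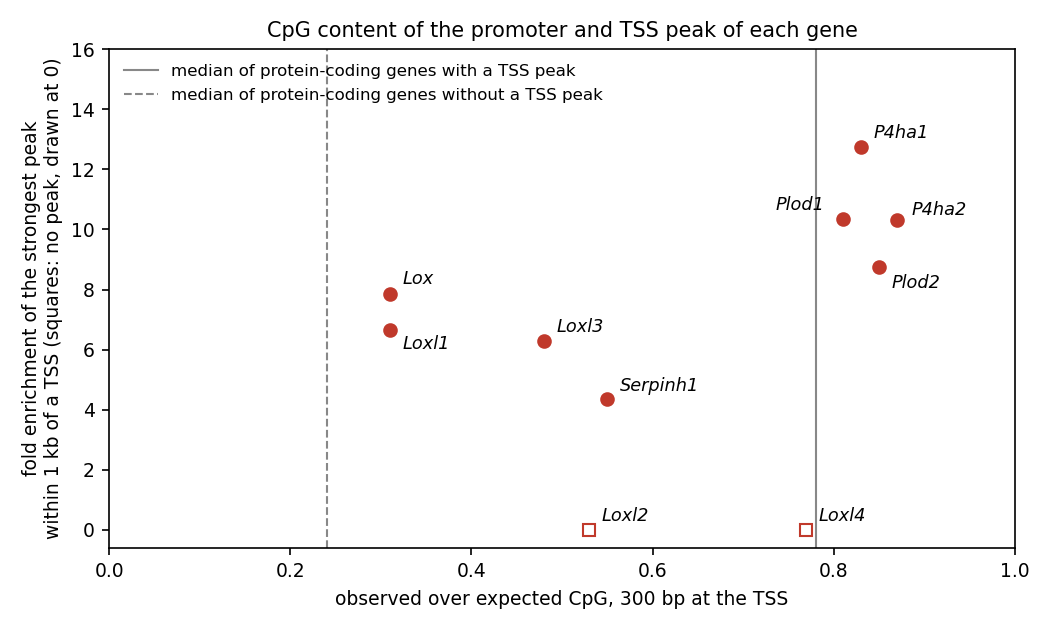
CpG content and TSS peak. The x axis is the ratio of observed to expected CpG in 300 bp at the TSS and the y axis the fold enrichment of the strongest TSS peak; squares at 0 are genes without one, and lines are the medians of protein-coding genes with (0.78) and without (0.24) a TSS peak. The 4 hydroxylase genes stand together at the upper right, and Loxl4 stands at 0 close to the line of genes with a peak.

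The 150 bases before the most upstream TSS of P4ha1 and Loxl4 are shown to set the gene with the highest TSS peak beside one that is without a TSS peak. Capitals mark CpG dinucleotides, of which both stretches hold 17. The stretches are chr10:59323146-59323295 on the + strand and chr19:42612814-42612963 on the − strand.
P4ha1 (fold enrichment 12.76): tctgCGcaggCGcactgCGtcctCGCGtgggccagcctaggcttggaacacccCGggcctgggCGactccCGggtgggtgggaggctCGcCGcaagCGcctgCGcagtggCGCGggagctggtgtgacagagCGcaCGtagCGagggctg
Loxl4 (no TSS peak): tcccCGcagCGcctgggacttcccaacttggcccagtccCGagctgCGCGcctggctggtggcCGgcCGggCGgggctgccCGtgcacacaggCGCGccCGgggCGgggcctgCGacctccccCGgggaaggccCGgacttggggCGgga

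Short sequences known to be bound by transcription factors were searched on both strands within 100 bp of the summits. Of the 11 TSS peaks of the 10 genes, 5 held ACGTG, against 17.8% of all peaks within 1 kb of a TSS. They were the peaks of Lox, Loxl3 and P4ha1 and both peaks of P4ha2. CCGCCC was found in 7 of the 11, against 45.9%, and CCAAT in 2, against 30.1%. TTCNNGAA was found in 2, at the first promoter of P4ha2 and at Serpinh1, a gene known for its response to heat shock, against 4.44%. At Serpinh1 the match lay 53 bp after the TSS. TGACTCA, the sequence of AP-1, TGACGTCA (CRE), GGAATG (TEAD) and TGTGGT (RUNX) were found in 0 of the 11, against 11.6%, 2.2%, 9.58% and 11.4%. TATAAA, the TATA box, was found in 1, at P4ha1 with its centre 27 bp before the TSS, against 4.17%, and CAGAC (SMAD) in 5, against 37.0%. With only 11 peaks, these shares are descriptions.

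Peaks in the gene body away from the TSSs were found in 4 of the 10 genes, and in 34.3% of all protein-coding genes. Plod2 had 4 of the 9, all in introns, and its highest, from 92560845 to 92561556, had a fold enrichment of 9.1 and 50 fragments, above its TSS peak in fold enrichment but not in fragments. Loxl1 had 2, the higher with 6.46 in an intron 13715 bp from the TSS. Lox had 1 in an intron, 1954 bp from its nearest TSS and within 1 kb of a TSS of AC161119.1, with 4.35. The 2 of Loxl2 both lay near the end of this 86.8-kb gene. The higher, from 69693410 to 69693574 in the 3′ untranslated region, had a fold enrichment of 7.09 and 26 fragments, and the lower, in an intron within 1 kb of the microRNA gene Mir6950, had 2.89 and only 10 fragments. The bodies of Loxl3, Loxl4, P4ha1, P4ha2, Plod1 and Serpinh1 had 0, apart from TSS peaks.

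Outside the genes, the number of peaks within 50 kb differed widely. Loxl3 had 14, more than 98.6% of the protein-coding genes, Serpinh1 10, Plod1 8, Loxl1 7, and Lox, Loxl4 and P4ha2 6 each. Plod2 had 4, the median of protein-coding genes (quartiles 1 and 6), P4ha1 had 3 and Loxl2 2. Of the 66 peaks, 14 lay within 1 kb of a TSS of another gene, among them 5 of the 14 at Loxl3, 4 of the 8 at Plod1 and both at Loxl2. The other 52 were distal to all TSSs. Nearness does not show which gene such a peak acts on, and several lay inside neighbouring genes.

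The highest peak outside each gene was as follows. At Lox it lay 29120 bp upstream, with 89 fragments at the summit, which gave a fold enrichment of 13.64 (−log10 q 69.52), within the antisense RNA gene AC161119.1, which also covers the other 4 upstream peaks of Lox. The pair next to the gene, 5581 and 7056 bp upstream, had 8.73 and 11.12. With the peak 34606 bp upstream (7.99), 4 of the 5 upstream peaks were above the TSS peak of Lox at 7.85 in fold enrichment, but the last of these had only 33 fragments against 51 at the TSS. At Loxl3, a peak 27820 bp upstream inside M1ap had 15.09 and a −log10 q of 82.9, and at Serpinh1 a peak 40328 bp past the gene's end inside Map6 had 14.52 and 96 fragments, against 4.36 and 31 at its TSS. At Plod1 the highest, with 15.33, lay within 1 kb of TSSs of Miip and Fv1, and the highest distal peak, 3347 bp past the gene, had 12.51 and 111 fragments and lay 1702 bp from the 5′ end of Mfn2.

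P4ha2 had the highest of all 86 peaks, 8475 bp past its end from 54140050 to 54140654, with 128 fragments at the summit, which gave a fold enrichment of 18.53 (−log10 q 115.75), higher in fold enrichment than 99.5% of all peaks in the list. In the reference, 50.2% of its bases are soft-masked as repeats. The remaining values were 9.19 for Plod2 at 38565 bp upstream, 7.33 for P4ha1 at 13765 bp upstream (70.8% soft-masked), 8.02 for Loxl4 at 47529 bp upstream, 7.72 for Loxl1 at the promoter of Stoml1 and 10.03 for Loxl2 at the promoter of Chmp7. Loxl2 thus had no peak outside the gene that was not at a TSS of another gene.

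TGACTCA or its reverse complement TGAGTCA lay within 100 bp of the summit in 24 of the 59 distal peaks of the 10 genes (40.7%, 95% Wilson interval 29.1% to 53.4%). The share was 36.5% over all 47192 distal peaks, which lies inside that interval. The interval treats the 59 peaks as independent, although they lie near only 10 genes in 1 library, so a difference was not tested. The matches were in 5 of 9 distal peaks at Serpinh1, 4 of 8 at Plod2, 4 of 6 at Loxl4, 3 of 7 at Loxl1, 2 of 6 at Lox and at P4ha2, 2 of 3 at P4ha1, 1 of 4 at Plod1, 1 of 9 at Loxl3 and 0 of 1 at Loxl2. Peaks with a match had a median fold enrichment of 7.25 (2.91 to 14.52) and those without 6.46 (2.48 to 18.53), against medians of 6.3 and 5.25 over all distal peaks.

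The summits of 4 distal peaks are shown with 50 bp on either side, read on the strand of the gene, with TGACTCA or TGAGTCA in capitals. They are the highest distal peak of Plod1 (chr4:147906356-147906456, − strand), of Serpinh1 (chr7:99304998-99305098, − strand) and of P4ha2 (chr11:54140090-54140190, + strand), and the highest peak with a match in the body of Plod2 (chr9:92562566-92562666, + strand, fold enrichment 7.16). The peak of P4ha2 has no match.
Plod1, past the 3′ end (12.51): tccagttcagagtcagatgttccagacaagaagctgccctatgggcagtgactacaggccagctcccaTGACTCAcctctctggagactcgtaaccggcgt
Serpinh1, past the 3′ end (14.52): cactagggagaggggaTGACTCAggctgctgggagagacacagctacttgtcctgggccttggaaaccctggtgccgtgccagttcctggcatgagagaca
Plod2, intron (7.16): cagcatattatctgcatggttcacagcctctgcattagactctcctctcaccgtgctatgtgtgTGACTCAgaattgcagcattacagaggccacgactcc
P4ha2, past the 3′ end (18.53): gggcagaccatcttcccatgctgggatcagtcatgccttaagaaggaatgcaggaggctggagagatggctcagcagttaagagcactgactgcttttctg

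The other genes of collagen maturation were 30 in number, of which 21 had a TSS peak, with a median fold enrichment of 9.49, against 53.7% and 9.86 over all protein-coding genes. Of 13 genes for hydroxylation, glycosylation and folding 10 had one, with the highest at P4ha3 (15.87), the third catalytic subunit of prolyl 4-hydroxylase, and Colgalt1 (13.62), a collagen galactosyltransferase. The peak of P4ha3 lay 618 bp from the nearest TSS and is lost where a distance of at most 500 bp is asked for. P4hb, which encodes the subunit shared by the prolyl 4-hydroxylases, had 9.87 and Plod3, the third lysyl hydroxylase gene, 8.2. P3h2, Crtap and Colgalt2 had none, and the neighbours P3h4 and Fkbp10 shared a single peak (6.41). Of 4 genes for secretion 3 had one, led by Mia3 (13.72), whose product helps load procollagen into transport carriers, and Creb3l1 had none. Of 8 genes for the removal of propeptides 4 had one, a share close to that of all protein-coding genes, with fold enrichments between 5.18 and 6.04. The peak of Adamts14 lay 662 bp from its TSS, and Tll1, Tll2, Adamts3 and Pcolce2 had none. Of 5 genes for fibre assembly 4 had one, with Fn1 the highest (10.52), and Postn had none.

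**Figure D4:**
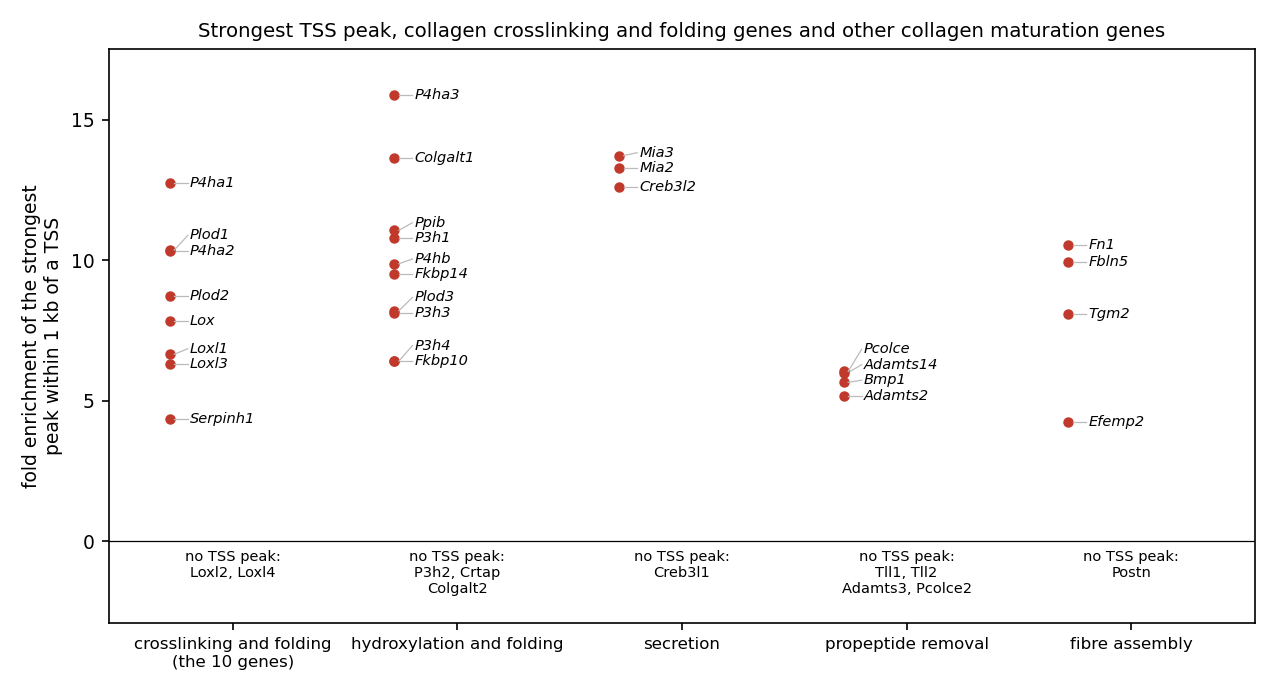
TSS peaks by role in collagen maturation. The y axis is the fold enrichment of the strongest peak within 1 kb of a TSS, columns are roles with the 10 genes at the left, and genes without a TSS peak are named at the bottom. The genes for propeptide removal stand between 5.18 and 6.04, below the 3 open genes for secretion, between 12.59 and 13.72.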

How the data were processed

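Reads of the parental NIH-3T3 library were aligned by the authors to mm10 with STAR 2.5.3a, freed of duplicates with Picard, and peaks were found on whole fragments with MACS2 2.1.1.20160309 (versions per the submitters' processing notes). A shift of read ends to the Tn5 cut is not mentioned. The methods refer to the ChIP-seq section for how these peaks were called, and that section includes the removal of blacklisted regions and of peaks found in input chromatin; whether the list was so filtered was not tested. Each deposited line holds the fold enrichment, the score and, on a −log10 scale, the p-value and q-value of a peak; the score was not used. Positions were joined to the GENCODE M21 annotation and the GRCm38 reference, which are of the same build, and are counted from 1. A peak was a TSS peak when its interval came within 1 kb of the start of any transcript of the gene, otherwise a body peak when it overlapped the gene, and otherwise an outside peak up to 50 kb away. Peaks more than 1 kb from any TSS are called distal.

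Fragments at the summit were solved by bisection from fold enrichment and −log10 p, which gave whole numbers within 0.02 for 63454 of 63456 peaks and, on 5000 simulated summits, recovered 100% of them. Motifs were searched on both strands within 100 bp of the summit. The CpG window lies at the TSS nearest the summit of the strongest TSS peak, or at the most upstream TSS where there is none. All 10 genes were named, each with its strongest TSS, body and outside peak; of the 30 other genes, those without a TSS peak and the 3 highest were named, and P4hb, Plod3, Fn1, P3h4 and Fkbp10 were chosen after their values were seen. The genes, lists and motifs were chosen with earlier results of these data known, and the CpG comparison and the sequences shown were chosen after the values were seen. No printed base lies in an annotated exon, and the sequence of 1 further promoter is not reported here. Alternatives were thresholds on q and fold enrichment, distances, transcript sets, joined peaks and window widths. The software was pysam 0.24.0, SciPy 1.17.1, pandas 2.3.3 and NumPy 2.4.6 under Python 3.11.15, with matplotlib 3.10.9 for plots.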

Additional observations from a re-analysis of the deposited data

How the results depend on the processing

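No paired analysis was possible because the peaks come from a single library. The number of genes with a TSS peak was 8 under 6 of its 7 alternatives, and 7 with a fold enrichment of at least 5, which left out Serpinh1. Of all protein-coding genes, 48.8% had a TSS peak with a fold enrichment of at least 5. The share was 52.0% with a −log10 q of at least 5, 48.7% where the peak had to overlap the TSS, and 52.0% with TSSs of protein-coding transcripts only. Over all results, 32 alternatives stayed within a factor of 1.5 or the counting interval. With a fold enrichment of at least 5, the bodies of the genes held 5 peaks in place of 9, and a limit of 20 kb or 100 kb gave 29 or 116 peaks outside the genes, which follows from the alternatives themselves. Within 50 bp of the summit, 25.4% of the distal peaks of the genes held TGACTCA, against 26.4% over all distal peaks. The median TSS peak in fragments, which is another unit and no test of the median fold enrichment, was 55 against 64 over all protein-coding genes with one. The lowest summit depth of 10 fragments limits what the list can show.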
